A study of Mus musculus with 18 samples.

Results

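The genes described here are 10 immediate early genes of mouse liver, Fos, Fosb, Fosl2, Jun, Junb, Jund, Egr1, Ier2, Ier3 and Myc, out of 15572 genes with a count in the RNA-seq table. They were chosen by name from the gene symbols of that table and not by any measured value, though earlier results of these data were known. Of the 10 genes, 9 had enough counts to be tested, and Fosb did not. Fos, Fosb, Fosl2, Jun, Junb, Jund, Egr1 and Myc encode DNA-binding transcription factors. Ier2 encodes a nuclear protein without a classical DNA-binding domain, and Ier3 a small protein of stress and survival signaling that is not known as a DNA-binding factor, so the name of transcription factor genes does not cover Ier3.

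Immediate early genes are transcribed within minutes of a signal, without new protein synthesis, because the factors that start them, such as SRF with its TCF partners and CREB, are already in the cell and are switched on by kinases. Fos and Jun proteins pair through leucine zippers to form AP-1, Egr1 is a zinc finger factor, and Myc binds E-boxes as a pair with Max. In liver these genes are known for their response to growth factors, insulin, injury and partial hepatectomy, and for their short-lived mRNA.

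RNA-seq was made from liver of WT mice and of mice with a liver-specific deletion of Jmjd1c (JMJD1C-LKO), both fasted overnight and then refed a high carbohydrate diet, with 2 libraries of pooled RNA per group. ATAC-seq, which marks accessible chromatin by transposase insertion, was made from single livers of fasted WT, refed WT and refed JMJD1C-LKO animals. H3K9me2 ChIP-seq, which marks a histone methylation linked to silent chromatin, was made from fasted and refed WT animals. Both had 2 livers per group. The mice were C57BL/6J and had been kept on chow for 6 to 8 weeks. The study's methods give an age of 12 weeks unless specified otherwise. The deletion used floxed alleles and Cre under the albumin promoter, which acts in hepatocytes, so other liver cells keep the gene. The labels give 6 h of refeeding for every sample, where the methods give 8 to 16 h for feeding experiments, and F and R in the sample titles were read as fasted and refed. How many mice entered each RNA pool is not given in the sources used here, and the p-values below measure only the spread between these libraries.

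The 4 RNA libraries held between 51265128 and 54400509 counts. Jmjd1c, the targeted gene, had 22.0 and 22.8 CPM (counts scaled to library size, TMM-normalized) in the WT libraries and 20.0 and 20.5 in the libraries labelled JMJD1C-LKO. Its log2 fold change was -0.14 ± 0.08 (SE), with an adjusted p of 0.23 by edgeR's quasi-likelihood test with Benjamini-Hochberg adjustment, which all adjusted p-values below use unless another test is named. Both labelled libraries lay just below both WT libraries, so total Jmjd1c mRNA did not check the labels at the size of a knockout. With the most abundant transcript alone in place of the sum, its log2 fold change was 0.10. Which part of the gene was removed is not given in the sources used here. The libraries are therefore named by their label, LKO standing for labelled JMJD1C-LKO. The hepatocyte markers summed to between 99874 and 112627 CPM in all 4 libraries. Markers of other cell types moved with the label. The 8 Kupffer cell and macrophage markers summed to 245 and 251 CPM in WT and to 482 and 695 CPM in LKO replicates 1 and 2, and the 6 endothelial markers to 96.9 and 97.9 against 131 and 173 CPM. Of these, 8 of 8 and 5 of 6 markers were higher in LKO at an adjusted p under 0.05, where 14.6% of all genes tested were. None of these markers was at 0 in any library. Of the other marker lists, 1 of 5 stellate cell (Col1a1), 1 of 7 lymphocyte (Cd3e), 1 of 5 erythroid (Alas2) and 1 of 6 hepatocyte markers (Cps1) were higher, 0 of 4 cholangiocyte and 0 of 3 tested neutrophil markers were, and 1 of the neutrophil markers was at 0 in at least 1 library. With so few genes a list, these numbers are counts only, to be read against the same 14.6%. In bulk liver, more cells of a type and more RNA per cell cannot be told apart.

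Jun, Junb and Egr1 were higher in the LKO than in the WT refed livers, by 1.74, 1.63 and 1.82 times in mean CPM, and the other 6 tested genes did not pass the test. Thus 3 of 9 genes were called higher, where 14.6% of all 14151 genes tested were, and 0 of 9 were called lower, where 13.4% of all genes were. At an unadjusted p under 0.05, 3 of 9 were higher, where 20.5% of all genes were, and 0 lower, where 19.5% were. DESeq2's Wald test called 2 higher, where it called 12.5% of the genes it gave an adjusted p, and 0 lower, where it called 11.4%. The median log2 fold change of the 9 genes was 0.19, against 0.01 over all genes tested. With 9 genes, these shares are counts and not a test of the group.

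**Figure D1:**
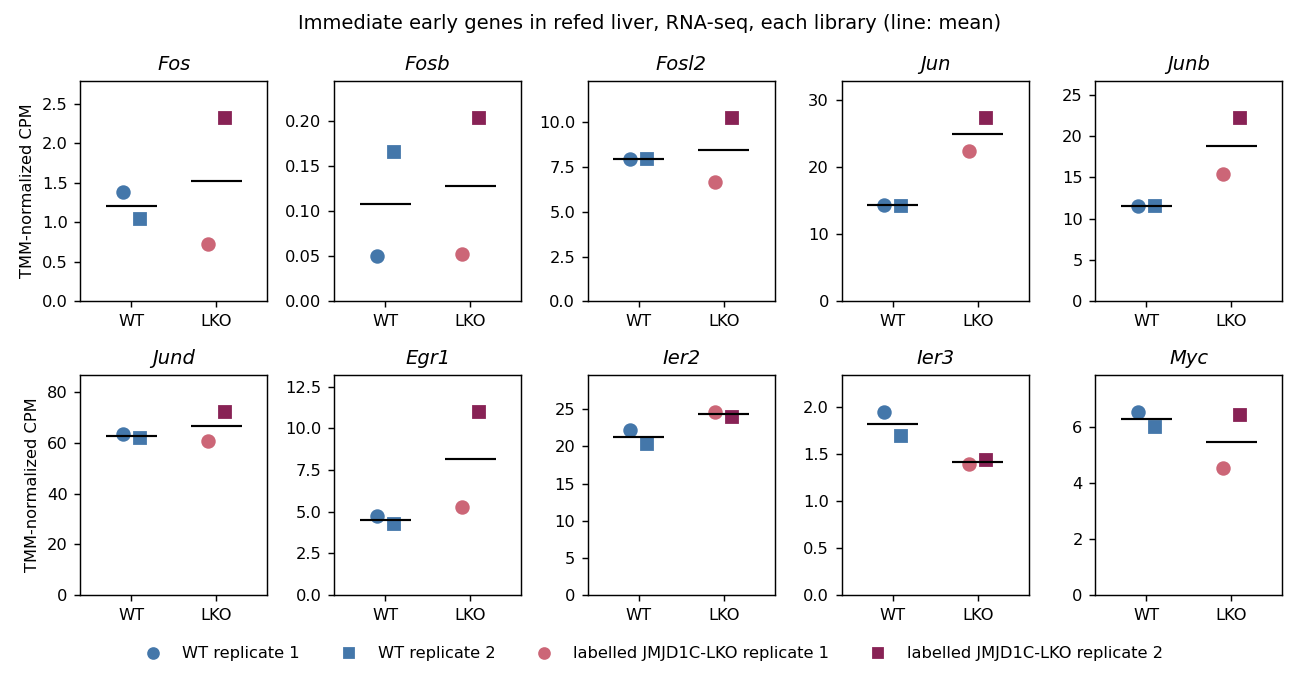
TMM-normalized CPM of each immediate early gene (y axis, linear, starting at 0) in each refed RNA-seq library, WT in blue and labelled JMJD1C-LKO in red, circles for replicate 1, squares for replicate 2 and a line for the mean of 2 libraries. Both LKO libraries lie above both WT libraries for Jun, Junb, Egr1 and Ier2 and below for Ier3, and LKO replicate 2 is the highest library for Fos, Fosb, Fosl2, Jun, Junb, Jund and Egr1.

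Jun, the AP-1 subunit that pairs with itself or with Fos proteins, stood at 14.4 and 14.2 CPM in the WT libraries and at 22.4 and 27.3 CPM in LKO replicates 1 and 2. Both LKO libraries were above both WT libraries, and the WT libraries were nearly alike. Its log2 fold change was 0.80 ± 0.11 (SE) with an adjusted p of 0.0010. Jun was the single gene of the 10 called in every alternative, and without 1 library its log2 fold change ranged from 0.65 to 0.93.

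Junb, a Jun protein that often opposes the action of Jun, stood at 11.6 and 11.5 CPM in WT and at 15.4 and 22.2 CPM in LKO replicates 1 and 2. The groups did not overlap, and LKO replicate 2 was 1.44 times LKO replicate 1, more than the gap between the WT libraries. Between the groups the log2 fold change was 0.71 ± 0.15 (SE) with an adjusted p of 0.0091. Without WT replicate 1 or WT replicate 2 the adjusted p was 0.072 and 0.087, so the call did not hold with a single WT library, whereas it held without either LKO library, at log2 fold changes of 0.94 and 0.42.

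Jund, the Jun protein that is made steadily in most cells, stood at 63.7 and 62.0 CPM in WT and at 60.8 and 72.5 CPM in LKO. The groups overlapped, with LKO replicate 1 the lowest of the 4 libraries and LKO replicate 2 the highest. The log2 fold change was 0.09 ± 0.09 (SE) with an adjusted p of 0.54.

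The promoters of the Jun genes, 250 bases read up to the RefSeq start (GRCm38.p6), are shown as the sequence just before the starts from which the summit distances below are counted. The ATAC-seq summits of Jun lie inside its window, whereas no summit lies inside the windows of Junb and Jund. Jun lies at chr4:95049036-95052222 on the minus strand, and its promoter at chr4:95052223-95052472. Junb lies at chr8:84976909-84978748 on the minus strand with its promoter at chr8:84978749-84978998, and Jund at chr8:70697739-70700616 on the plus strand with its promoter at chr8:70697489-70697738. The fourth sequence is the 201 bases around the upstream ATAC-seq summits of Junb, at chr8:84979864-84980064, written on the strand of the gene. Capitals mark matches on either strand to TGACATCA, which is the AP-1 site known from the Jun promoter. They also mark GGGCGG, which is the GC box of SP and KLF factors, and TGACG, which opens the CREB site.
Jun promoter: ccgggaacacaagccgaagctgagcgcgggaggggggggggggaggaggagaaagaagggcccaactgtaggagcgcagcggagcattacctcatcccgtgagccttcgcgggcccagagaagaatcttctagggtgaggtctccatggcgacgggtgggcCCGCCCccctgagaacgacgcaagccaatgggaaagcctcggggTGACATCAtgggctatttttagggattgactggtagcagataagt
Junb promoter: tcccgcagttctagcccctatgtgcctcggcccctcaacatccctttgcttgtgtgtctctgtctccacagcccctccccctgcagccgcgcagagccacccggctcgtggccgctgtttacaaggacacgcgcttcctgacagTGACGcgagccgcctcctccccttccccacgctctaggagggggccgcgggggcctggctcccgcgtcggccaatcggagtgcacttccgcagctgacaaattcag
Jund promoter: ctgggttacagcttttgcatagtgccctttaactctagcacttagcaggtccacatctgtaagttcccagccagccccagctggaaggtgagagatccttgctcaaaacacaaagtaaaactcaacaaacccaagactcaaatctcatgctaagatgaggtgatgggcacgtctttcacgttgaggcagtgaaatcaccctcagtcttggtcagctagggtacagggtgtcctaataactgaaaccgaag
Junb upstream ATAC region: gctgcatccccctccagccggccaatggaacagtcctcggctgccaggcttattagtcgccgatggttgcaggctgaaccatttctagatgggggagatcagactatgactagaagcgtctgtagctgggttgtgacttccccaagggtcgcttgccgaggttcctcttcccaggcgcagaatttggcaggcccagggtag
The TGACATCA match began 45 bases before the Jun start, and 2.93% of the 32851 RefSeq promoters held one in the same window. The GC box began 89 bases before the Jun start, a motif found in 32.7% of promoters, and TGACG 106 bases before the Junb start, found in 17.8%. The Jund window held none of these and had 47.6% G and C, below the median of 52.4% over all promoters, where Jun had 61.2% and Junb 66.4%. The GENCODE vM21 annotation starts Jund 1210 bp farther downstream. The Jund window therefore describes only the sequence before the RefSeq start, and the sequence before the GENCODE start was not read. The Junb upstream region held none of the motifs searched.

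Fos, the best known partner of Jun in AP-1, was low in refed liver, at 1.39 and 1.04 CPM in the WT libraries and 0.729 and 2.32 CPM in LKO replicates 1 and 2. The LKO libraries held both the lowest and the highest value, 3.19 times apart. The log2 fold change was 0.34 ± 0.46 (SE) with an adjusted p of 0.61. Without LKO replicate 1 it was 0.93 with an adjusted p of 0.028, and without LKO replicate 2 it was -0.73 with an adjusted p of 0.20, so 1 library decided its direction.

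Fosl2, a Fos family member that lacks the strong activation domain of Fos, stood at 7.97 and 7.94 CPM in WT and at 6.68 and 10.3 CPM in LKO. As for Fos, the LKO libraries lay on either side of the WT libraries. The log2 fold change was 0.09 ± 0.19 (SE) with an adjusted p of 0.74, and it was 0.36 without LKO replicate 1 (adjusted p = 0.047) and -0.25 without LKO replicate 2 (adjusted p = 0.23). Fosb, the remaining Fos family member, had 2.59 and 8.64 estimated counts in WT and 2.59 and 11.2 in LKO, too few to test. Of its 2 RefSeq transcripts 1 was listed in the count table.

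The Fos promoter at chr12:85473640-85473889 and the Fosl2 promoter at chr5:32136222-32136471, both on the plus strand (GRCm38.p6), are shown in the same way, with the 201 bases around a cluster of ATAC-seq summits about 18.5 kb upstream of Fos, at chr12:85455267-85455467. Fos itself lies at chr12:85473890-85477274 and Fosl2 at chr5:32136472-32157840. Capitals mark TGACG and the GC box as above, the TATA box written TATAAA, the E-box written CACGTG and the EGR site written GCGGGGGCG, on either strand. The EGR site and the GC box overlap in Fosl2.
Fos promoter: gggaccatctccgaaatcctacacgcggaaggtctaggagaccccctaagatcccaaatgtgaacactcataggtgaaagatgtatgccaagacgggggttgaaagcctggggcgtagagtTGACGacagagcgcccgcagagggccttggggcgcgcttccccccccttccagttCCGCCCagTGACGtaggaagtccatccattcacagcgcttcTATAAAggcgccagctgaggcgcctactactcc
Fosl2 promoter: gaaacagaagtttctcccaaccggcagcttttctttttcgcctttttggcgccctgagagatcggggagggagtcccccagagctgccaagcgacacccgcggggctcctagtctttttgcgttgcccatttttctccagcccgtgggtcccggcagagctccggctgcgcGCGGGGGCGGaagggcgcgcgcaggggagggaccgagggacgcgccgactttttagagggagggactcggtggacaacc
Fos upstream ATAC region: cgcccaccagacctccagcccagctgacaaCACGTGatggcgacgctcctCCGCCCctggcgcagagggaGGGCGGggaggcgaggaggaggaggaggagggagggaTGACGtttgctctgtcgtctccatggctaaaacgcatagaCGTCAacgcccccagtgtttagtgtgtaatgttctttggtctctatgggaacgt
In the Fos promoter TATAAA began 33 bases before the start, a motif that 12.4% of promoters held in this window, and TGACG began 129 and 66 bases before it. The Fosl2 promoter held the EGR site 79 bases before its start, as did 2.57% of promoters, and the Fosb promoter one at 50 bases. Of the 7 genes with a promoter sequence, 5 held a GC box (Jun, Fosl2, Fosb, Fos and Ier3). None of the 7 held the full CREB site written TGACGTCA, the common AP-1 site written TGAGTCA, the E-box or the CArG box of SRF in these 250 bases, which 1.55%, 4.46%, 6.02% and 1.47% of all promoters did. The region upstream of Fos held 1 E-box, 2 GC boxes and 2 TGACG matches. A match is a run of letters and not evidence of binding.

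Egr1, the zinc finger factor that binds GC-rich sites, stood at 4.75 and 4.24 CPM in WT and at 5.30 and 11.0 CPM in LKO replicates 1 and 2. The groups did not overlap, but LKO replicate 1 was just above WT replicate 1 and LKO replicate 2 was 2.08 times LKO replicate 1. This gave a log2 fold change of 0.87 ± 0.28 (SE) with an adjusted p of 0.047. The call was lost without LKO replicate 2 (0.24, adjusted p = 0.34), without either WT library (adjusted p = 0.15 and 0.24), with the most abundant transcript in place of the sum (adjusted p = 0.12) and with DESeq2's Wald test (adjusted p = 0.24). With the replicate number as a block it was 0.79 with an adjusted p of 0.0048.

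Ier2 stood at 22.2 and 20.4 CPM in WT and at 24.7 and 24.0 CPM in LKO, and Ier3 at 1.95 and 1.69 against 1.40 and 1.43 CPM. For both genes the groups did not overlap, Ier2 being higher and Ier3 lower in LKO. Their log2 fold changes of 0.19 ± 0.09 and -0.36 ± 0.24 (SE) had adjusted p-values of 0.13 and 0.30. In all, both LKO libraries lay above both WT libraries for 4 of 9 genes and below for 1, and over all genes tested these shares were 33.7% and 33.8%.

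Myc, the E-box factor of growth and ribosome synthesis, stood at 6.54 and 5.98 CPM in WT and at 4.51 and 6.42 CPM in LKO replicates 1 and 2. LKO replicate 1 was the lowest library and LKO replicate 2 lay between the WT libraries. The log2 fold change was -0.19 ± 0.19 (SE) with an adjusted p of 0.48, and without LKO replicate 1 it was 0.03. Its 4 RefSeq transcripts fall into a pair of 2396 bases and a pair of 2399 bases, and the longer pair took 61.5%, 68.0%, 48.5% and 79.8% of the Myc estimate in WT 1, WT 2, LKO 1 and LKO 2. Since these transcripts share nearly all their sequence, the split between them is uncertain.

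The LKO libraries differed from each other at most of these genes. LKO replicate 2 was above LKO replicate 1 for 8 of 9 tested genes (88.9%), and the exception was Ier2 with a ratio of 0.972. Over all genes tested the share was 50.6%. The ratio of replicate 2 to replicate 1 ran from 0.972 to 3.19 in LKO among the tested genes and from 0.745 to 0.996 in WT. The sum of the 10 genes was 135 and 129 CPM in WT and 142 and 178 CPM in LKO, and LKO replicate 2 also had the higher sum of Kupffer cell (695 against 482 CPM) and of endothelial markers (173 against 131 CPM). The part of these cell types in the levels of Jun, Junb and Egr1 was not tested. Without LKO replicate 1, 5 of 9 genes were called higher (Egr1, Fos, Fosl2, Jun and Junb), where 17.9% of all genes were. Without LKO replicate 2, 2 of 9 were (Jun and Junb), where 11.2% of all genes were. Without WT replicate 1 or 2, Jun alone was called higher, where 5.44% and 4.55% of all genes were.

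**Figure D2:**
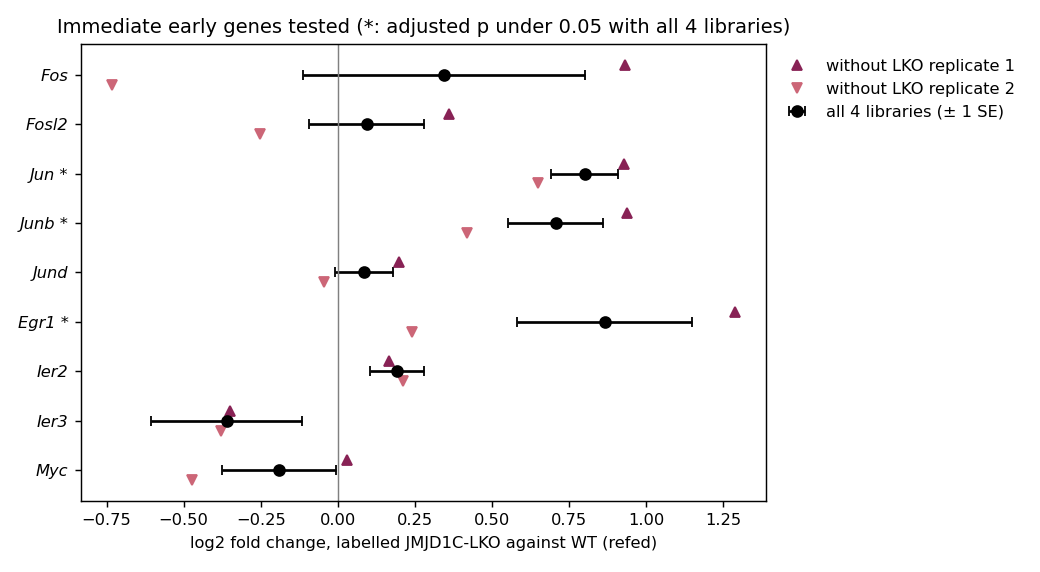
Log2 fold change of LKO against WT refed liver (x axis) for the 9 tested immediate early genes, from all 4 libraries (black circles, bars ± 1 SE) and without LKO replicate 1 (triangles up) or 2 (triangles down). The estimates without either LKO library stay on the same side of 0 for Jun, Junb, Egr1, Ier2 and Ier3, and lie on opposite sides for Fos, Fosl2, Jund and Myc.

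Per transcript length (TPM), which allows levels to be compared between genes, Jund was the highest of the 10 genes in WT refed liver at 37.6 ± 0.16 (SD, n = 2). It was followed by Ier2 at 24.1 ± 1.12, Junb at 10.8 ± 0.13, Jun at 7.71 ± 0.034, Myc at 4.49 ± 0.21, Ier3 at 2.87 ± 0.25, Egr1 at 2.51 ± 0.16, Fosl2 at 2.33 ± 0.030, Fos at 0.987 ± 0.19 and Fosb at 0.0513 ± 0.040 TPM. Neighbors in this order did not overlap within WT, but over all 4 libraries the levels of Junb and Jun, Ier3 and Egr1, Egr1 and Fosl2, and Fosl2 and Fos did. In LKO the order was the same except that Egr1, at 4.52 ± 2.37 TPM, stood 5th and Ier3, at 2.19 ± 0.11 TPM, stood 8th. The genes outside the group whose pattern over the 4 libraries came nearest to the median pattern of the 9 genes were 4933431G14Rik, Slc36a4 and Gm15441, at Euclidean distances of 0.034, 0.036 and 0.042 between centered log2 CPM values. None of these 3 was called, and their adjusted p-values were 0.47, 0.70 and 0.57.

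Of 113 tested genes in 6 lists of genes related to the 10, 47 passed the test, 34 higher and 13 lower in LKO, where 28.0% of all genes passed. Among the other immediate early genes, 19 of 35 were higher and 5 lower, where 14.6% and 13.4% of all genes tested were. Their median log2 fold change was 0.43. Those with the smallest p were Gadd45g, a stress-induced growth regulator (2.69 ± 0.23), the zinc finger factor Klf2 (1.50 ± 0.13), Gadd45a (-2.33 ± 0.21), the antiproliferative Btg2 (2.32 ± 0.22) and the EGF receptor inhibitor Errfi1 (0.94 ± 0.09, all log2 ± SE). Gadd45g stood at 11.5 and 12.4 CPM in WT and at 55.2 and 99.0 CPM in LKO, a larger shift than any of the 10 genes had. Gadd45a, of the same family, went the other way, from 9.32 and 7.31 CPM to 1.91 and 1.40 CPM. In this list LKO replicate 2 was above LKO replicate 1 for 28 of 35 genes (80%), where over all genes tested the share was 50.6%.

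Of the bZIP genes that can pair with Fos or Jun proteins, 5 of 11 were higher and 0 lower in LKO, with a median of 0.53. Over all genes tested, 14.6% were higher and 13.4% lower, and with 11 genes these numbers are counts only. Among them were Jdp2 (2.27 ± 0.32), Maf (0.53 ± 0.11), Mafk (0.46 ± 0.10) and Batf (1.40 ± 0.38, all log2 ± SE). Batf, known from lymphocytes, was at 0.309 and 0.460 against 0.890 and 1.14 CPM, and the 7 lymphocyte markers summed to 4.96 and 3.91 against 7.57 and 9.65 CPM. The part of lymphocytes in these values was not tested.

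In the lists of regulators and partners that follow, the shares called are to be read against the 14.6% of all genes that were higher and the 13.4% that were lower, and with 12 to 28 genes a list they are counts only. Of 28 MAPK pathway kinases and adaptors, 3 were higher and 5 lower, with a median of 0.01. Mapkapk2 (0.67 ± 0.09), Map3k5 (0.78 ± 0.10) and Map2k6 (0.83 ± 0.13), kinases known from stress signaling, were the higher ones, and the receptor Egfr (-0.56 ± 0.13) was among the lower. Of 14 phosphatases and feedback inhibitors of the pathway, 2 were higher and 1 was lower, with a median of 0.10. Dusp2, a nuclear MAPK phosphatase, went from 0.405 and 0.441 to 1.21 and 2.18 CPM, Dusp16 changed by 0.30 ± 0.08 and Spred1 by -0.47 ± 0.12. Of 12 SRF, TCF and CREB activators, the CREB coactivator Crtc2 (0.39 ± 0.09) and the SRF coactivator Mkl2 (0.38 ± 0.10) were higher and 0 were lower, with a median of 0.11. In the Myc and Max network, 3 of 13 genes were higher and 2 lower, with a median of -0.14. Mycl (1.45 ± 0.20), Mlxip (0.62 ± 0.15) and Mxd4 (0.40 ± 0.11) were higher, while Mga (-0.61 ± 0.09) and Mlxipl, which encodes the carbohydrate-responsive factor ChREBP (-0.49 ± 0.08), were lower, beside the value for Myc itself given above (all log2 ± SE).

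**Figure D3:**
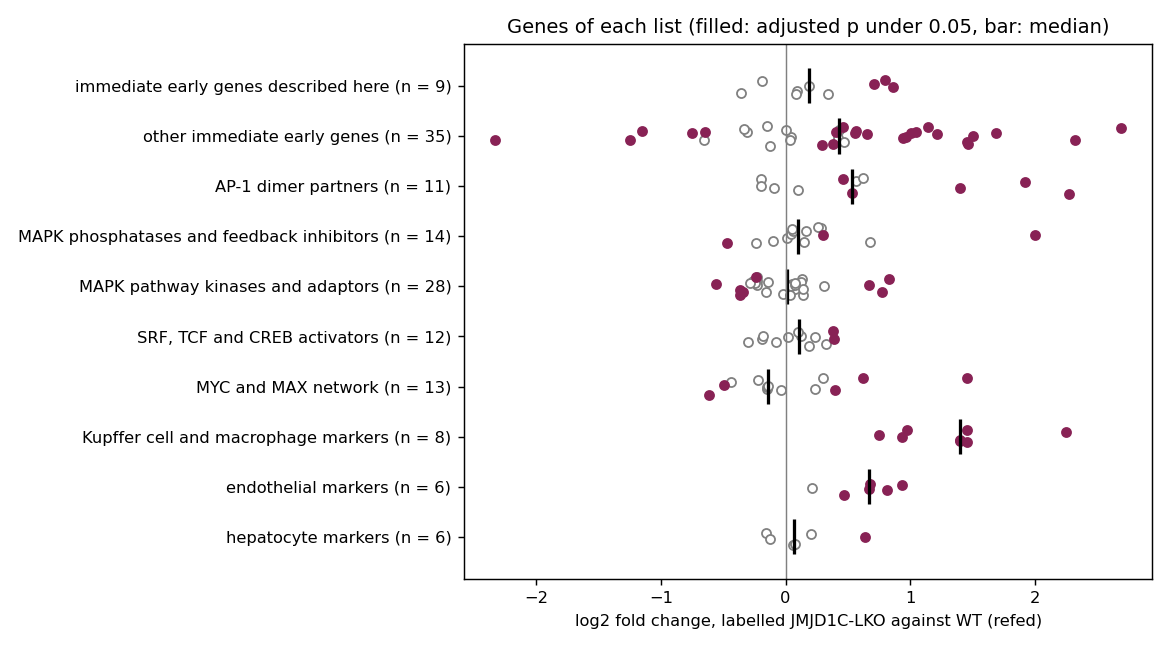
Log2 fold change of LKO against WT refed liver (x axis) for each tested gene of the immediate early genes described here, of 6 related lists and of 3 cell type marker lists, filled where the adjusted p was under 0.05, with a bar at the median of each list. The medians run from -0.14 for the Myc and Max network to 1.40 for the Kupffer cell and macrophage markers, and the immediate early genes described here have a median of 0.19.

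At the chromatin level, accessible summits lay at few of the 10 genes in any group. Peak summits, single positions called by the authors in each liver, numbered 5220 and 7632 for ATAC-seq of the fasted group, 5027 and 3119 for refed WT and 1450 and 825 for LKO, so a missing summit and a short list cannot be told apart. Within 1000 bp of a RefSeq start, 3 of the 10 genes had an ATAC-seq summit in fasted replicate 1 (Jun, Jund and Egr1), where 20.2% of 13825 expressed genes with an annotated start had one, and 2 in fasted replicate 2 (Fos and Jund), where 9.28% did. In the WT refed livers the numbers were 2 (Jun and Egr1, against 16.7% of genes) and 2 (Jund and Egr1, against 10.5%). In the LKO livers they were 1 (Egr1, against 6.66%) and 0 (against 1.31%). In both livers of a group, only Jund had one in the fasted (7.36% of genes), only Egr1 in the refed (8.07%) and none of the 10 in the LKO livers (0.564%). The exact two-sided permutation test of these numbers gave p = 1 for fasted against refed and p = 0.333 for refed WT against LKO, and 0.333 is the smallest that 2 livers against 2 allow.

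Egr1 had its ATAC-seq summit at nearly the same place in 4 livers, 212, 234, 250 and 157 bp upstream of its start in fasted replicate 1, refed replicates 1 and 2 and LKO replicate 1. By score it ranked 3525 of 5220, 493 of 5027, 813 of 3119 and 1099 of 1450 summits in these livers, in the same order. Jun had summits 15 and 43 bp upstream of its start in fasted replicate 1 and refed replicate 1, beside the TGACATCA match shown above, and none nearby in the other 4 livers. The Junb summits, 1216, 1146 and 1235 bp upstream in fasted replicate 1, refed replicate 1 and LKO replicate 1, lay within 89 bp of each other in the upstream region printed above. Junb, which was higher in LKO, thus had a summit in 1 of 2 livers of each group at this place.

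Jund had a summit in all 4 WT livers and in neither LKO liver. It lay 854, 924, 1029 and 951 bp downstream of the RefSeq start, which is 356, 286, 181 and 259 bp before the start that the GENCODE vM21 annotation gives, 1210 bp farther downstream. In fasted replicate 1, refed replicate 1 and refed replicate 2 it was among the 825 strongest summits, the length of the shortest list, while in fasted replicate 2 it was not. The nearest LKO summits were 142.1 and 735.4 kb away. Among 656 expressed genes with a summit within 2500 bp of a start in all 4 WT livers, 243 (37.0%) had none in either LKO liver, so Jund shared this pattern with many genes, and its mRNA did not pass the test for a difference.

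Fos had a summit at its promoter in fasted replicate 2 alone, 187 bp upstream. In 3 other WT livers, fasted replicate 1 and refed replicates 1 and 2, the nearest summit was 18523, 18491 and 18526 bp upstream, 3 positions within 35 bp of each other in the upstream region printed above. Fosb had a summit 1490 bp downstream of its start in fasted replicate 2. Ier3 had none within 2500 bp, and its nearest lay between 19718 and 19860 bp downstream in fasted replicate 1 and both refed livers. Fosl2, Ier2 and Myc had no ATAC-seq summit within 2500 bp in any of the 6 livers.

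**Figure D4:**
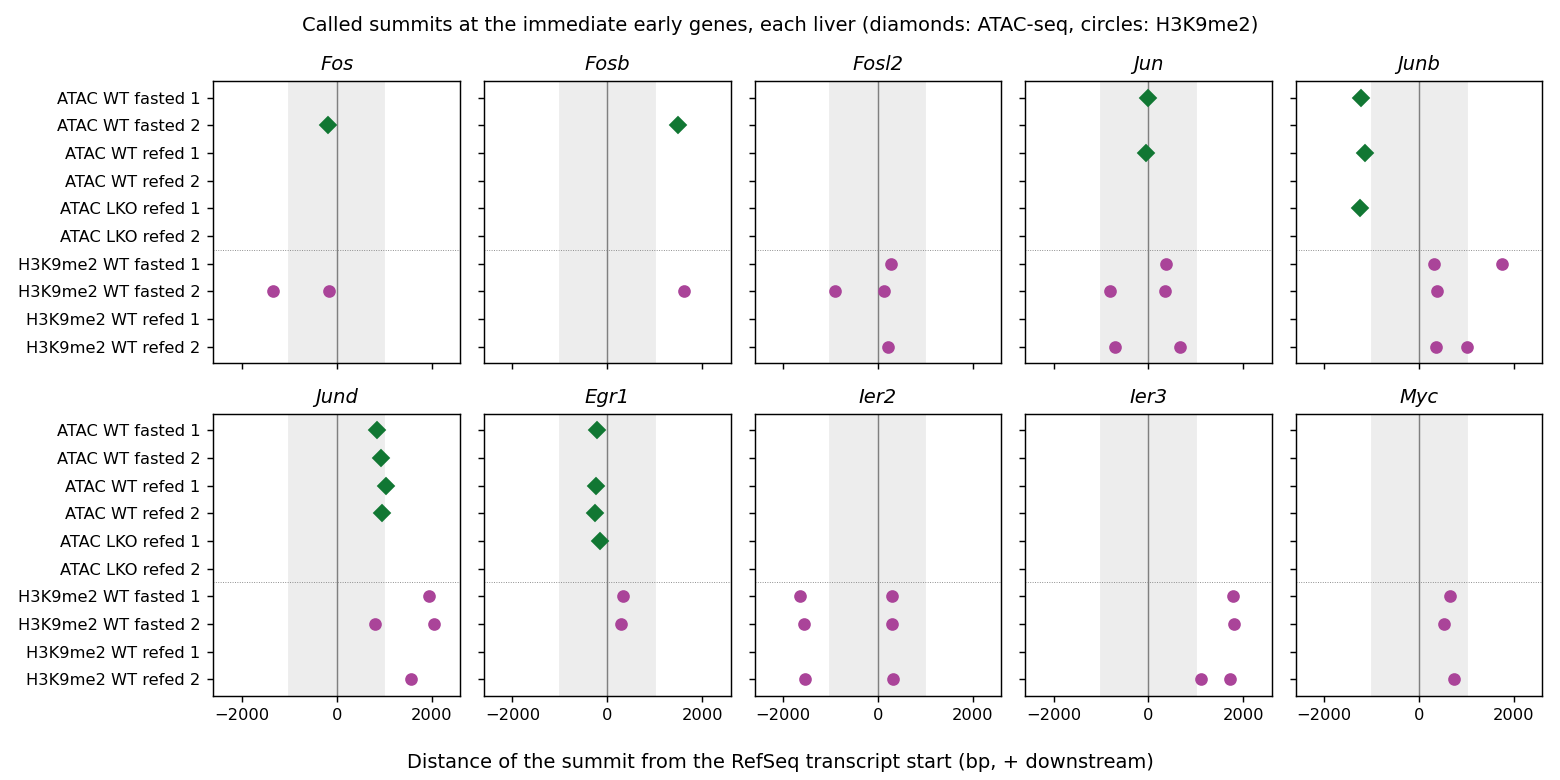
Distance of each called summit from the nearest RefSeq transcript start (x axis, bp, positive downstream) for each immediate early gene, with 1 line per liver, ATAC-seq as green diamonds and H3K9me2 as purple circles, and the 1000 bp on either side shaded. ATAC-seq summits recur at Jund in the 4 WT livers and at Egr1 in 4 of 6 livers, and H3K9me2 summits at Ier2 and Junb recur at 295 to 383 bp downstream in both fasted livers and refed replicate 2.

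The fasted H3K9me2 lists held 7690 and 13456 summits and the refed lists 1297 and 9929, and refed replicate 1, the short list, stood apart, with a summit at 0 of the 10 genes and at 0.123% of expressed genes. In fasted replicate 1, 6 genes had a summit within 1000 bp of the start (Fosl2, Jun, Junb, Egr1, Ier2 and Myc, against 51.6% of genes), and in fasted replicate 2 these and Fos and Jund did (8, against 74.1%). In refed replicate 2 there were 5 (Fosl2, Jun, Junb, Ier2 and Myc, against 61.6%). Both fasted livers shared 6 (51.3% of genes) and both refed livers 0 (0.0723%). The exact two-sided permutation test of fasted against refed gave p = 0.333, the smallest possible, and without refed replicate 1 the group comparison is 6 and 8 against 5 with no test.

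Counted from RefSeq starts, the H3K9me2 summit nearest to the start lay downstream of it for Ier2, Junb, Fosl2, Jun and Myc. For Ier2 it lay 306, 295 and 328 bp downstream, in the coding exon, in fasted replicates 1 and 2 and refed replicate 2, and ranked 463 of 7690, 139 of 13456 and 140 of 9929 by score. Ier2 was thus among the strongest 1297 summits of each of these 3 livers. It was the single gene of the 10 with a summit that strong within 1000 bp of a RefSeq start in both fasted livers. Jund summits ranked 357 of 7690 and 690 of 13456 in fasted replicates 1 and 2. They lay 1956 and 2052 bp downstream of the RefSeq start of Jund, but 746 and 842 bp downstream of its GENCODE start. For Junb the nearest summits lay 314, 383 and 366 bp downstream, for Fosl2 269, 132 and 219 bp, for Jun 371, 350 and 663 bp and for Myc 648, 534 and 740 bp, in the same 3 livers. Counted from GENCODE starts, these Myc summits lay 67 bp downstream, 47 bp upstream and 159 bp downstream. For Fosl2 in fasted replicate 2, the summit nearest to the GENCODE start lay 243 bp upstream of it. Ier2, Jun and Fosl2 also had a summit upstream of the RefSeq start. These lay 1642, 1565 and 1531 bp upstream of Ier2 in the 3 livers, 806 and 697 bp upstream of Jun in fasted replicate 2 and refed replicate 2, and 914 bp upstream of Fosl2 in fasted replicate 2.

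Egr1 had an H3K9me2 summit 322 and 299 bp downstream of its start in fasted replicates 1 and 2. By score these ranked 1974 of 7690 and 6697 of 13456. In refed replicate 2 the nearest lay 70419 bp away, and refed replicate 1, the short list, had none nearby. The share of all genes with this pattern is not given here. The ATAC-seq summit of Egr1 was called in fasted replicate 1 and LKO replicate 1 as well as in both refed WT livers. Jund had H3K9me2 summits 1956 bp downstream in fasted replicate 1, 815 and 2052 bp downstream in fasted replicate 2 and 1561 bp downstream in refed replicate 2, 3 of these 4 in its coding exon. Fos had summits 154 and 1337 bp upstream in fasted replicate 2, where the ATAC-seq list of the same replicate number also had a summit at its promoter, though the labels do not say that both came from the same mouse. The Ier3 summits, 1778 and 1811 bp downstream in the fasted livers and 1727 bp in refed replicate 2, lay past the end of Ier3 in the neighboring gene Flot1, and refed replicate 2 had another at 1111 bp within Ier3. Fosb had one at 1624 bp in fasted replicate 2 alone. For RNA, no fasted library was made, so whether the summits that differ between fasted and refed livers go with a change in mRNA cannot be tested here.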

How the data were processed

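The RNA-seq values are estimated counts per RefSeq transcript as the authors deposited them, unscaled, with 65.7% to 66.0% of values holding a fraction. The submitters' processing notes name HISAT2 and Partek and the build mm10, and the counting method is not given in the sources used here. For ATAC-seq and ChIP-seq the authors called summits in each liver with MACS2 2.1.1 at a q-value cutoff of 0.05, with a fold enrichment of at least 2.0 and 2.5, and deposited the −log10 of the q-value at each summit. The lists hold no read counts, so their depth is unknown and scores were ranked within a liver only. The authors' own table of fold changes and p-values was not used.

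Counts were summed per gene and rounded. Genes passing filterByExpr (14151) were fitted with edgeR 4.0.16 (R 4.3.3), TMM and the quasi-likelihood F test, without a block, and p-values were adjusted by Benjamini-Hochberg over all of them. The common dispersion was 0.0083. CPM values are TMM-normalized, and TPM values use RefSeq transcript lengths, found for 24682 of 24994 transcripts. Summits within 1000 bp of a RefSeq start (GRCm38.p6) were assigned to a gene. Promoter sequences came from RefSeq, with an entry for 7 of the 10 genes and not for Egr1, Ier2 and Myc. Motifs were read on both strands in the 250 bases before a start, and TGACG was added after the sequences were seen. Alternatives were DESeq2 1.42.0, other size factors, no filter, the most abundant transcript, a replicate block, leaving out each sample, other windows, scores and starts. Replicate numbers were not treated as pairs in the main fit. Over genes, the deviations of WT and LKO from their group means correlated at -0.00461. With 2 libraries per group this cannot settle whether samples were paired. The fit was tested on simulated data.

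The genes and lists were chosen with earlier results of these data known. The text names all 10 genes, Jmjd1c, up to 5 genes with the smallest p per related list, and the 3 genes nearest to the median pattern. Genes of the marker lists were counted and summed. Results of some genes in the related lists are not reported here.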

Additional observations from a re-analysis of the deposited data

How the results depend on the processing

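Of 81 recomputed log2 fold changes of the 9 tested genes, 68 kept their direction and their side of the threshold, 7 lost and 2 gained the call, and 4 changed direction. These 4 were Fos, Fosl2 and Jund without LKO replicate 2 and Myc without LKO replicate 1. Without 1 library, Fos ranged from -0.73 to 0.93, Fosl2 from -0.25 to 0.36, Jund from -0.047 to 0.20 and Myc from -0.47 to 0.030. Of 234 values of 26 other named genes, 200 kept both, 1 changed direction (Jmjd1c, 0.10 with the most abundant transcript) and 33 lost the call, most of them with a single WT library, where the lone sample is assumed to vary like the other group. The number of all genes called, 3958, was 2326 with the most abundant transcript and from 1068 to 5180 without 1 library. Of the 10 genes, 1 to 5 were called without 1 library, and of the related lists 22 to 62. With the replicate number as a block, 4207 genes were called and the same 3 of the 10 (Jun, Junb and Egr1), and the block changed no call among the 10. The cause of these changes was not tested.

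The number of genes with an ATAC-seq summit in both fasted livers, 1, became 0 with a 500 bp window, a score of at least 5 or the 825 strongest summits of each liver, and 4 with either liver, and each fasted liver alone gave 3 and 2. In the refed livers, 1 became 2 with a 2500 bp window or GENCODE starts, 0 with the strongest summits and 3 with either liver, and each liver alone gave 2. In LKO, 0 became 1 with either liver, and each liver alone gave 0 and 1. For H3K9me2, 6 in the fasted livers became 1 with the 1297 strongest summits, and 0 in the refed livers became 5 with either liver and 0 to 5 with 1 liver. The equal numbers of summits and the GENCODE starts were chosen after seeing the data. Depth limits Fos, Fosb and Ier3 most in RNA, and the short summit lists limit what an absent summit shows.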
